A study of Mus musculus with 16 samples.

Results

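The immediate early genes of neurons were followed through 16 single-nucleus RNA-seq libraries of the mouse hippocampus. The set held 10 genes, *Fos*, *Fosb*, *Junb*, *Egr1*, *Npas4*, *Arc*, *Nr4a1*, *Nr4a3*, *Bdnf* and *Homer1*, which were found by symbol among the 32285 genes of the count matrices. Each library came from 1 male mouse, so a difference between libraries is a difference between animals and their preparations. The wild-type (WT) mice were C57BL/6, aged 2 months and 23 days, with 4 given vehicle and 4 given DMXAA, an agonist of mouse STING. The other mice were Ifnar1-/- (KO) and lack a subunit of the type I interferon receptor in every cell, were aged 3 months and 3 days, and were also split into 4 given vehicle and 4 given DMXAA. Genotype therefore coincided with age and with cohort, and these cannot be told apart. Tissue was taken the day after the last injection, per the study's methods.

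Immediate early genes are transcribed within minutes of synaptic activity, because calcium and kinase signals reach transcription factors such as CREB, SRF and MEF2 that already sit at their promoters and need no new protein. Many of their products are themselves transcription factors, which start a later wave of genes, while others act at the synapse. In the hippocampus they are used as a record of which neurons were recently active, and novelty, seizures and handling all raise them. The RNA of many of these genes is short-lived, so its level at 1 moment can reflect the minutes before the tissue was taken.

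Promoters of these genes carry the binding sites through which activity acts, and 5 of them that held the sequence marked below are shown as examples. RefSeq (GRCm38.p6) held promoter entries for 8 of the 10 genes, 15 in all with several for *Bdnf* and *Homer1*, and the 250 bases upstream of each start were searched on both strands. Capitals mark the core TGACG of a cAMP response element, read on either strand, where CREB binds. Each line runs 5′ to 3′ on the strand of its gene.
Fos (chr12:85473640-85473889, plus strand): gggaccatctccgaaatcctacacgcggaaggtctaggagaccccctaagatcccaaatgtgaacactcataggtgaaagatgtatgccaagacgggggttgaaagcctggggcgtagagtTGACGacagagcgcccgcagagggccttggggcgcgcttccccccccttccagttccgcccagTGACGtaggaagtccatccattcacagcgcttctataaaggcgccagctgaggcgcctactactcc
Npas4 (chr19:4989972-4990221, minus strand): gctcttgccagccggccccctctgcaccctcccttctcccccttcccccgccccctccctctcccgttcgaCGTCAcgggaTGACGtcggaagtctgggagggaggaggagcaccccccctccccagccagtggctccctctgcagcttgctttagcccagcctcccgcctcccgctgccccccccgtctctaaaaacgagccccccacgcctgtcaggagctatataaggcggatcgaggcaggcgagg
Nr4a1 (chr15:101266596-101266845, plus strand): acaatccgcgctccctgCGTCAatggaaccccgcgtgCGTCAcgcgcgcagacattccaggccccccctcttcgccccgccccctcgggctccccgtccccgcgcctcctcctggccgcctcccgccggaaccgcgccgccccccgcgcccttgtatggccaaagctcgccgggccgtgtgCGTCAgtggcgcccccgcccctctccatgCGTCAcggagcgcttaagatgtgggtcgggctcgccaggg
Nr4a3 (chr4:48045055-48045304, plus strand): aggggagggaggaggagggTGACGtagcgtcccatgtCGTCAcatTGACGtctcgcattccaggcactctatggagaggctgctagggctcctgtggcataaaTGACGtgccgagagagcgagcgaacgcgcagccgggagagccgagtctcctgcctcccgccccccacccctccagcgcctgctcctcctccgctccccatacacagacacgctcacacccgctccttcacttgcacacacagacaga
Bdnf, the third of its 7 entries (chr2:109692186-109692435, plus strand): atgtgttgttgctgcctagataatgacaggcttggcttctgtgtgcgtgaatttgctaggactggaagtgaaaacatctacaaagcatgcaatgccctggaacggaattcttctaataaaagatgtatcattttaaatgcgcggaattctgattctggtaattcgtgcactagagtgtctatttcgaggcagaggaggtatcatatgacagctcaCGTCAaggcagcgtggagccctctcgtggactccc
*Nr4a3* and *Nr4a1* each held the core 4 times, *Fos* and *Npas4* 2 times, and this *Bdnf* promoter 1 time, 35 bases before the start. None of the other *Bdnf* entries held it. *Fosb*, *Junb* and *Homer1* also had an entry with the core, which is not shown. The core was in 8 of the 15 entries, at least 1 for each of the 8 genes, against 17.8% of the 32851 promoters in the table. The full palindrome TGACGTCA was in none of the 15 entries and in 1.55% of all promoters. The core of the serum response element was likewise in none of them and in 1.47% of all. Sites farther upstream than 250 bases were not searched, nor were the promoters of *Arc* and *Egr1*, which had no entry. A match is a run of letters and not a measured site.

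Depth and quality set the frame for what follows. Of 155084 barcodes, 112551 nuclei were kept, and 5303 to 9446 nuclei per library held 33635564 to 53168134 unique molecular identifiers (UMIs). Nuclei were clustered without the 10 genes and named from marker lists, and these rebuilt names (dentate granule-like and so on) are used below without the suffix. Their markers were detected in 8 of 8 for dentate granule, CA1, CA3 and astrocyte nuclei, in 7 of 7 for microglia and both oligodendrocyte clusters, and in 6 of 6 for oligodendrocyte precursors. The clusters of inhibitory neurons held 7 to 8 of 8 and those of cortical neurons 5 to 9 of 10. The cortical cluster of 2206 nuclei had a marker score of 2.01 for cortical neurons and of 1.65 for CA1 neurons. The 2 oligodendrocyte clusters were parted by genotype, with 19.3 and 94.8% of their nuclei from WT mice. The library labelled WT DMXAA replicate 3 stood apart. *Malat1*, a nuclear noncoding RNA, took 2.41% of its dentate granule UMIs against 6.42 to 8.15% in the other WT DMXAA libraries, which placed it within the 1.68 to 2.72% of the KO DMXAA libraries. Its *Ifnar1* level there was 13.4 CPM (UMIs scaled to a total of 1e6), and its interferon-stimulated genes (the list described next) summed to 165 CPM there, the lowest of its group but above the 49.4 CPM of the highest WT vehicle library. Whether it was prepared apart from its group is not given in the sources used here, and the counts of members with DMXAA are given below also without it. Other values that use WT DMXAA libraries include it. The targeted gene *Ifnar1* was at 12.9 to 15.1 CPM in the dentate granule nuclei of WT vehicle libraries and at 8.21 to 11.9 CPM in those of KO vehicle libraries. Which part of the gene is deleted was not given in the sources used here, so these counts check the labels only in part. A list of 15 interferon-stimulated genes summed to 1835 to 5240 CPM in microglia of WT DMXAA mice, against 388 to 501 CPM with vehicle and 249 to 352 CPM in KO DMXAA mice.

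The 10 genes differed by class of nuclei, and each gene is compared here with itself across classes. *Fos*, *Fosb* and *Junb* encode subunits of the AP-1 transcription factor. *Fos* had its highest mean in cortical neurons, 7.24 ± 6.34 CPM (SD, n = 16 libraries), followed by astrocytes at 4.74 ± 3.86 and CA1 neurons at 4.2 ± 2.97 CPM, and all 3 ranges overlapped. *Fosb* was highest in cortical neurons as well (4.96 ± 3.88 CPM). *Junb* was at 30.6 ± 15.9 CPM in microglia and at 29.5 ± 24 CPM in cortical neurons, with overlapping ranges, and at 7.51 ± 4.44 CPM in dentate granule neurons. *Egr1*, a zinc finger transcription factor, went from 37.8 ± 21.2 CPM in cortical and 22.1 ± 8.9 CPM in CA1 neurons to 2.54 ± 1.65 CPM in dentate granule neurons. *Npas4*, a factor induced by calcium entry, was at 21.4 ± 11.9, 18.9 ± 8.34 and 2.27 ± 1.37 CPM in the same 3 classes. Dentate granule neurons were thus the neurons with the lowest means of these short transcripts, apart from *Arc*, which was lower in inhibitory neurons. For *Junb* the mean in inhibitory neurons was close, at 7.8 CPM. It was below that of dentate granule neurons in WT DMXAA, KO vehicle and KO DMXAA libraries. For *Egr1*, the means in microglia (6.92 CPM), oligodendrocytes (5.03 CPM) and astrocytes (4.07 CPM) were above that of dentate granule neurons. The same held for *Npas4*, at 3.73, 2.91 and 2.86 CPM in these glia. All these ranges overlapped those of dentate granule neurons.

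**Figure D1:**
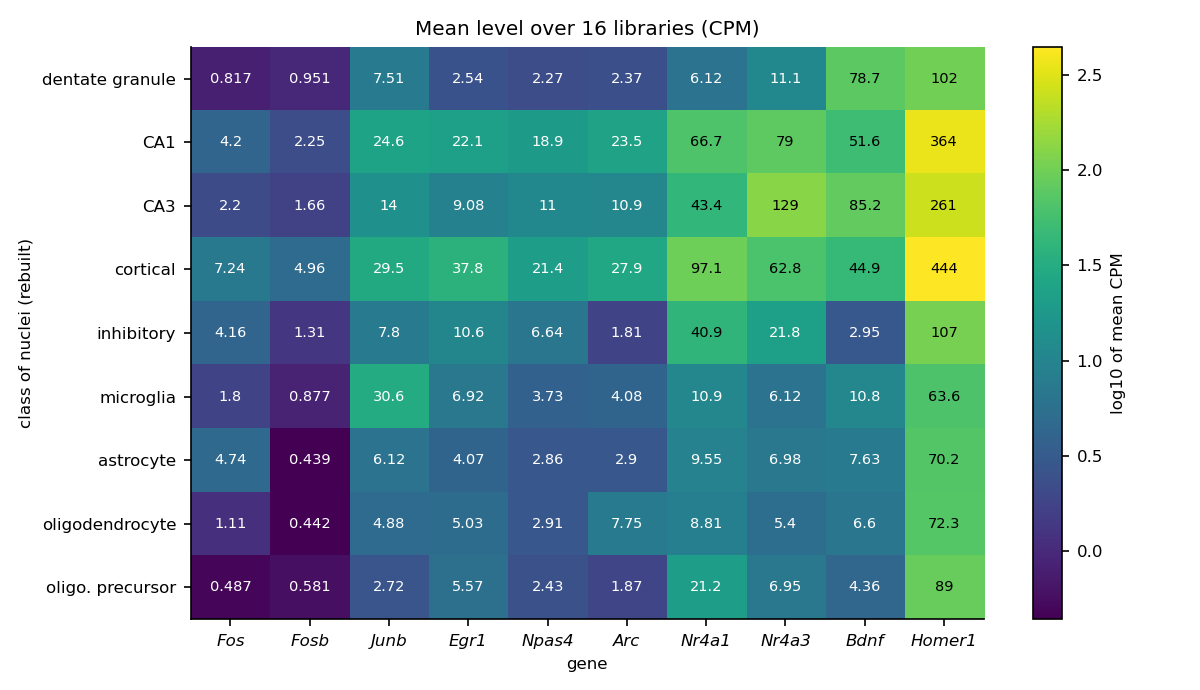
Mean level of each gene (columns) in each class of nuclei (rows), in CPM over 16 libraries, with colour on a log10 scale. Colours are to be compared down a column only, since genes differ in length, and cortical neurons hold the highest mean of 7 of the 10 genes.

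The synaptic and receptor genes were distributed differently. *Arc*, whose protein acts on AMPA receptor traffic at the synapse, was at 27.9 ± 21.7 CPM in cortical and 23.5 ± 11 CPM in CA1 neurons, and its mean in oligodendrocytes, 7.75 ± 3.39 CPM, was above those in inhibitory (1.81 ± 1.53) and dentate granule neurons (2.37 ± 1.16), with overlapping ranges. The orphan nuclear receptor *Nr4a1* was highest in cortical neurons (97.1 ± 29.2 CPM), whereas its relative *Nr4a3* was highest in CA3 neurons (129 ± 46.5 CPM). *Bdnf*, a neurotrophin, was at 85.2 ± 38.8 CPM in CA3 and 78.7 ± 14.1 CPM in dentate granule neurons, and at 2.95 ± 1.24 CPM in inhibitory neurons, where no library overlapped those of CA3. *Homer1*, a scaffold of the postsynaptic density, was at 444 ± 215 CPM in cortical neurons and 72.3 ± 25.3 CPM in oligodendrocytes. The counts cover all its isoforms, so the activity-induced short form is not separated. For every gene, each class overlapped between libraries with the next class in the order of means.

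The deposited counts include intronic reads, and the genes differ in how much intron they have. On GENCODE M21 (GRCm38), *Fos* (chromosome 12, 85473890 to 85477273), *Fosb* (chromosome 7, 19302696 to 19310051), *Junb* (chromosome 8, 84974484 to 84978718), *Egr1* (chromosome 18, 34859823 to 34864984), *Npas4* (chromosome 19, 4984355 to 4990316) and *Arc* (chromosome 15, 74669083 to 74672570) are compact, with 12.4 to 45.7% of the gene outside any annotated exon. *Nr4a1* (chromosome 15, 101254269 to 101274795), *Nr4a3* (chromosome 4, 48045153 to 48086447), *Bdnf* (chromosome 2, 109674700 to 109727007) and *Homer1* (chromosome 13, 93299635 to 93405129) are 82.9 to 88.6% intron. This split, which was drawn after the values had been seen, is used below because it parts the genes in several comparisons.

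Few nuclei held a molecule of a given short gene. After each nucleus was thinned to 1000 UMIs, 0.291% ± 0.319 of dentate granule nuclei (mean and SD over 16 libraries) held *Egr1*, 0.691% ± 0.511 *Junb*, 0.242% ± 0.189 *Arc*, 0.191% ± 0.187 *Npas4* and 0.0972% ± 0.0955 *Fos*. For the intron-rich genes the shares were 0.555% ± 0.205 for *Nr4a1*, 0.934% ± 0.421 for *Nr4a3*, 7.3% ± 1.39 for *Bdnf* and 8.61% ± 1.1 for *Homer1*. In cortical neurons *Egr1* reached 3.49% ± 2.26, *Arc* 2.69% ± 2.13 and *Junb* 2.96% ± 2.64. Thinning left out 1 of 19095 dentate granule nuclei, 4 of 14768 cortical nuclei and 373 of 18488 oligodendrocyte nuclei. Oligodendrocytes gave 0.486% ± 0.416 for *Egr1*, 0.797% ± 0.349 for *Arc*, 0.284% ± 0.341 for *Npas4*, 0.641% ± 0.372 for *Bdnf* and 6.59% ± 2.17 for *Homer1*, at a median of 2270 UMIs against 7820 in dentate granule nuclei. *Nr4a1* was in 0.97% ± 0.494 of oligodendrocyte nuclei and *Fos* in 0.111% ± 0.184. The shares of dentate granule nuclei with *Egr1*, *Arc*, *Npas4*, *Fos* or *Nr4a1* were no higher than in oligodendrocytes, whose nuclei held fewer UMIs, and no expression is read from these shares alone. Those for *Bdnf*, *Homer1*, *Junb* and *Nr4a3* were above the oligodendrocyte means, which were 0.508% ± 0.479 for *Junb* and 0.515% ± 0.434 for *Nr4a3*, as were all 3 cortical shares. The part of free RNA in these shares was not tested. Shares carry counting error beside the spread shown.

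Whether molecules of different members met in the same nuclei was read from shares. In cortical neurons thinned to 1000 UMIs, 69 of 484 nuclei with *Arc* (14.3%) held *Junb*, against 3.29% of nuclei without *Arc*. Likewise 60 of 484 nuclei with *Arc* (12.4%) held *Egr1*, against 3.89% of nuclei without *Arc*. The AP-1 genes and *Npas4* met as well, and 19 of 349 nuclei with *Npas4* (5.44%) held *Fosb*, against 0.52% of nuclei without *Npas4*. For *Nr4a1*, 118 of 484 nuclei with *Arc* (24.4%) held *Nr4a1*, against 8.98% of nuclei without *Arc*. The same direction was seen in CA1 neurons, where 13 of 145 nuclei with *Arc* (8.97%) held *Egr1*, against 1.61% of nuclei without *Arc*. In dentate granule neurons, 4 of 47 nuclei with *Arc* (8.51%) held *Junb*, against 0.693% of nuclei without *Arc*, and 5 of 36 nuclei with *Npas4* (13.9%) held *Junb*, against 0.687% of nuclei without *Npas4*. Few nuclei held the compact genes outside cortical and CA1 neurons. Of 15 pairs of them, 5 met in no thinned dentate granule nucleus, 6 in no inhibitory and 13 in no CA3 nucleus, and no absence is read from this at 1000 UMIs a nucleus. These are descriptions over nuclei of 16 libraries and of 5 cortical clusters, and the libraries differed in the level of all these genes at once, as given below. Of 14764 cortical nuclei, 140 (0.948%) held at least 3 of *Fos*, *Fosb*, *Junb*, *Egr1*, *Npas4*, *Arc* and *Nr4a1* after thinning, between 0 and 49 nuclei per library. In dentate granule neurons the count was 6 of 19094 nuclei.

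Whether DMXAA changed these genes was asked in each genotype and each of 9 classes (5 of neurons and 4 of glia), on UMIs summed per library and class, in which fewer expressing cells and less RNA per cell cannot be told apart. A gene was called at a Benjamini-Hochberg adjusted p under 0.05 over all genes of the class (edgeR quasi-likelihood test, two-sided) and an absolute log2 fold change over 0.1. Of 90 pairs of gene and class, 66 passed the filter on low counts. *Fos* failed it in dentate granule and CA3 neurons, microglia and both oligodendrocyte lineage classes, and microglia kept only *Junb* and *Homer1*. In WT mice 0 of the 66 pairs were called, against 0.226% of all gene and class pairs. In KO mice 0 of 66 were called, as were 0 of all 110620 pairs, so this count says nothing particular to the members. The 4 groups share 1 estimate of the spread. Without the library labelled WT DMXAA replicate 3, 429 of 112433 pairs were called in KO mice. The difference between the genotypes' responses was called in 0 of 66 pairs, against 0.0217%. Unadjusted edgeR p-values were under 0.05 in 11 of 66 pairs in WT mice, 4 in KO mice and 5 for the difference. Over all 110620 gene and class pairs the counts were 5831, 5948 and 7555 in the same order. DESeq2 called 0, 1 and 0 pairs in the same order, against 0.353, 0.0018 and 0.0877% of all gene and class pairs. In WT mice 53 of the 66 fold changes were below 0, with a median of -0.37 on the log2 scale against 0.016 over all genes tested, and in KO mice 32 were below 0, with a median of 0.0090. Pairs in 1 library share its animal, so these counts are not independent.

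**Figure D2:**
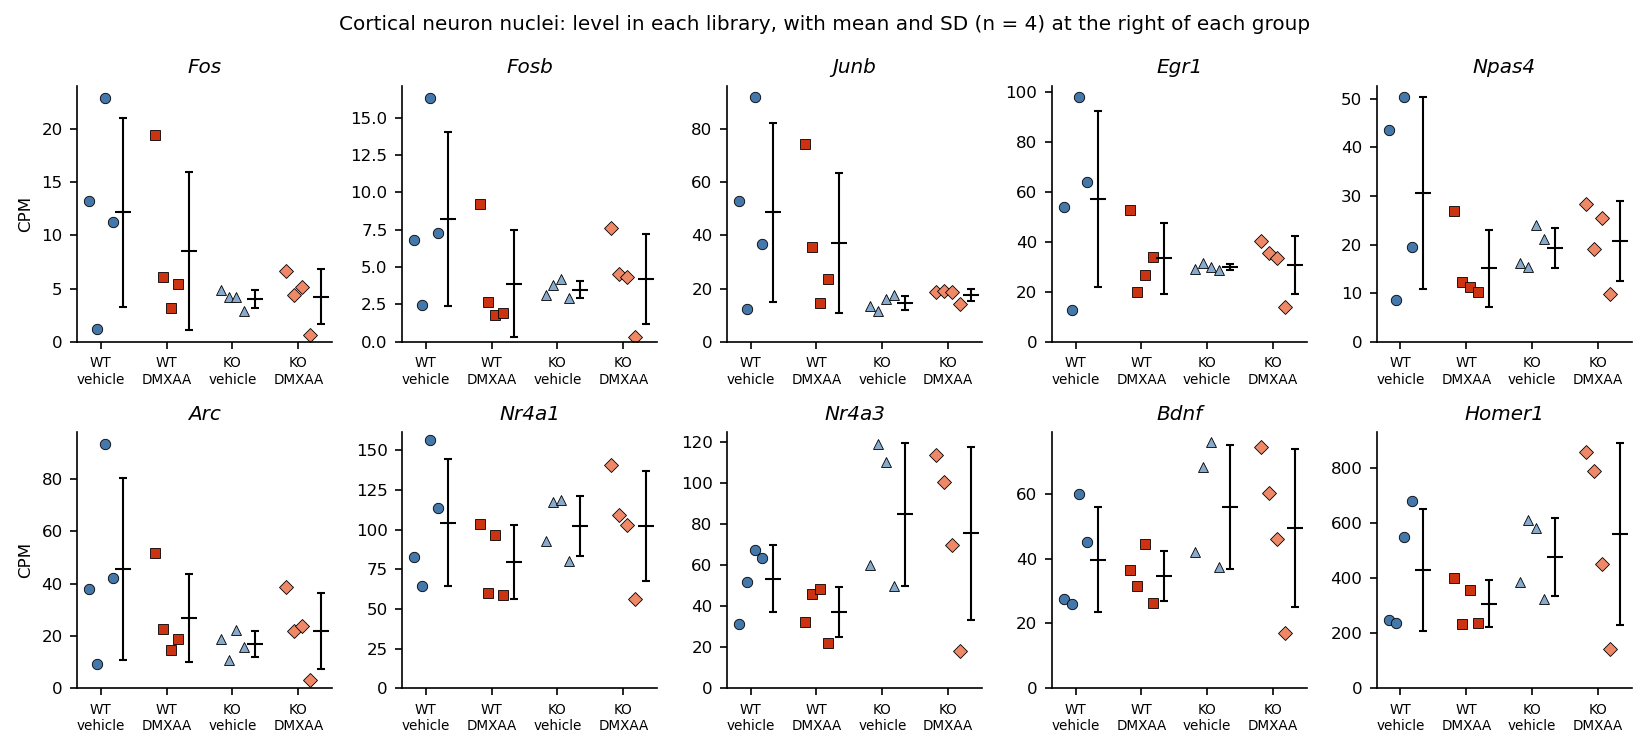
Level of each gene in cortical neuron nuclei, in CPM, with 1 point per library and the mean and SD of each group of 4 at its right. WT vehicle points spread most widely for the compact genes, and in each panel the WT DMXAA points overlap the WT vehicle points.

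The AP-1 genes show the size of the spread. In cortical neurons *Junb* was at 53.1, 12.4, 92.2 and 36.9 CPM in WT vehicle replicates 1 to 4 and at 74.3, 35.8, 14.7 and 23.7 CPM in WT DMXAA replicates. The highest and lowest libraries of both groups lay far apart and the groups overlapped, and the log2 fold change was -0.40 (SE 0.45, adjusted p = 0.999995). In KO mice the values were 13.4, 11.5, 16.2 and 17.6 CPM with vehicle and 18.7, 19.1, 18.7 and 14.4 CPM with DMXAA, below all but the lowest WT vehicle library. *Fosb* in dentate granule neurons had the lowest fold change of that class in WT mice, -1.34 (SE 0.62, adjusted p = 0.996), from 2.09, 0.663, 4.37 and 1.43 CPM with vehicle to 0.215, 1.64, 0.679 and 0.564 CPM with DMXAA, which overlapped. Few molecules stand behind these values, 154 UMIs of *Fosb* in all dentate granule nuclei together.

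The lowest fold change of any pair in WT mice was that of *Egr1* in inhibitory neurons. In inhibitory neurons *Egr1* was at 24.3, 9.69, 26.5 and 14.3 CPM in the 4 WT vehicle libraries and at 10.3, 2.42, 5.16 and 6.12 CPM in the 4 WT DMXAA libraries. Only the highest DMXAA library exceeded the lowest vehicle library. The log2 fold change of -1.64 (SE 0.36, adjusted p = 0.9999) had an unadjusted p of 2.42e-04 from edgeR and missed the threshold over 13023 genes. Without the filter on low counts the pair was called (adjusted p = 0.0184, edgeR), and over the other alternatives the adjusted p was at least 0.144. In KO mice the same gene was at 8.17, 9.08, 8.91 and 8.18 CPM with vehicle and 11.8, 12.5, 8.89 and 3.44 CPM with DMXAA, and the difference between the genotypes' responses was -1.77 (SE 0.55, adjusted p = 0.788). *Npas4* in inhibitory neurons had a fold change of -1.06 (SE 0.37, adjusted p = 0.9999) in WT mice and of 0.19 (SE 0.44, adjusted p = 0.936) in KO mice. In dentate granule neurons *Egr1* was at 6.75, 0.928, 6.15 and 3.23 CPM with vehicle and 2.9, 1.64, 2.72 and 2.26 CPM with DMXAA in WT mice, and at 1.6, 1.59, 1.17 and 2.43 and 1.5, 2.36, 1.57 and 1.9 CPM in KO mice. All of the WT DMXAA values lay inside the range of the WT vehicle values. The mean of *Egr1* in dentate granule neurons was below its means in glia given above.

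For the synaptic genes and nuclear receptors the differences were small or uncertain. *Arc* in cortical neurons was at 37.8, 9.35, 93.3 and 42 CPM with vehicle and 51.7, 22.8, 14.6 and 19 CPM with DMXAA in WT mice. Its log2 fold change was -0.76 (SE 0.55, adjusted p = 0.999995) with a 95% interval of -1.93 to 0.41, so changes of more than 2-fold in the negative direction stay within it. *Homer1* was bounded more closely in dentate granule neurons, where the interval was -0.46 to 0.16 in WT and -0.45 to 0.17 in KO mice. *Nr4a1* in CA1 neurons had a fold change of -0.38 (SE 0.15, adjusted p = 0.9997) in WT mice, with an interval of -0.70 to -0.060. *Nr4a3* in the same nuclei had -0.37 (SE 0.37, adjusted p = 0.9997). Of the 66 pairs, the interval lay within ±1 on the log2 scale in 23 in WT and in 24 in KO mice.

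**Figure D3:**
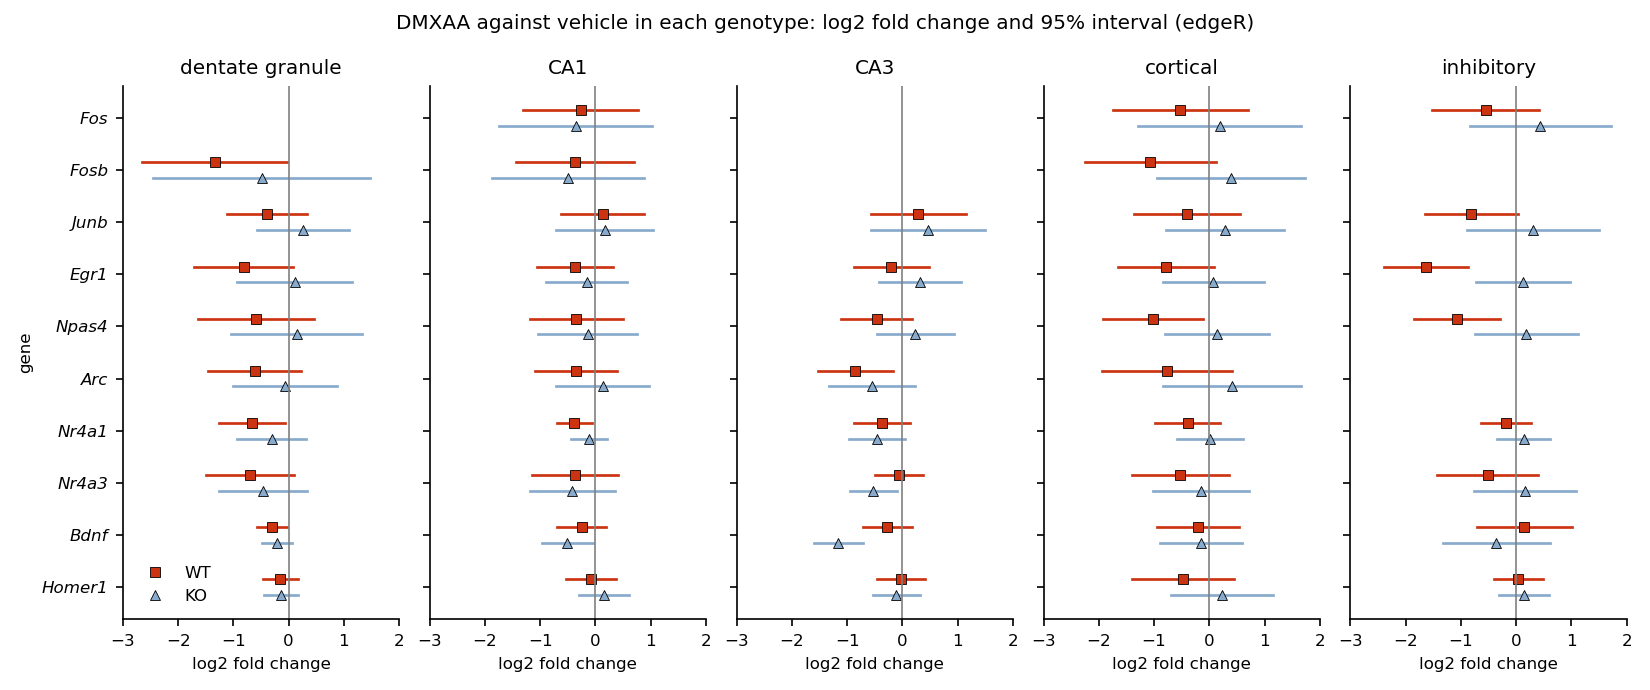
Log2 fold change of each gene with DMXAA against vehicle in 5 classes of neurons, in WT (squares) and KO mice (triangles), with 95% intervals as lines. Most intervals cross 0, and *Bdnf* in CA3 neurons of KO mice lies farthest from it among the intron-rich genes at -1.16.

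For the compact genes, WT vehicle libraries fell in a like order in the 8 classes where any was tested. Replicate 2 was the lowest of the 4 for the 6 compact genes in 34 of 34 tested pairs, and replicate 3 was the highest in 32 of 34. The intron-rich genes as a set did not share this order, with replicate 1 the lowest in 16 and replicate 2 in 11 of 32 pairs. Replicate 4 was the highest in 14 and replicate 3 in 13 of these pairs. Among them *Nr4a1* was close to the order of the compact genes, with replicate 2 the lowest in 5 and replicate 3 the highest in 7 of 8 classes. *Nr4a3* had replicate 1 as the lowest in 7 of 8 classes, and *Homer1* had replicate 4 as the highest in 9 of 9. *Bdnf* had no replicate as the lowest or the highest in more than 3 of 7 classes. For *Egr1*, replicates 2 and 3 stood at 12.9 and 98.1 CPM in cortical neurons, at 9.72 and 42.9 CPM in CA1 neurons and at 1.97 and 16.1 CPM in oligodendrocytes. The highest WT vehicle library exceeded the lowest by a median of 3.89-fold over the 25 neuronal pairs of compact genes and by up to 18.5-fold. For the 20 neuronal pairs of intron-rich genes the median was 1.91-fold, and the compact genes gave 3.21-fold in WT DMXAA, 1.92-fold in KO vehicle and 2.88-fold in KO DMXAA libraries, where the highest was 23.3-fold. Over all genes under 50% intron, the class medians of replicates 2 and 3 departed from the group mean by -0.10 to -0.013 and by 0.057 to 0.16 on the log2 scale. These are medians over many genes and the folds above are of single genes, so the measures are unlike. The part of this general departure in the order of the members was not tested. Classes of 1 library share an animal, a dissection and free RNA, so they are not separate observations. Among KO DMXAA libraries replicate 4 was the lowest in 20 of 34 compact and 28 of 32 intron-rich pairs.

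The library labelled WT DMXAA replicate 3 differed in another way. Its intron-rich members were the highest of the group in 26 of 32 pairs, with *Homer1* in astrocytes at 51.4, 54.8, 139 and 52.4 CPM and *Nr4a3* there at 2.01, 1.86, 26.4 and 3.23 CPM in replicates 1 to 4. The third value stands alone in both. Its compact members were the lowest of the group in 17 of 34 pairs, and over all genes under 50% intron its class medians lay -0.67 to -0.46 (log2) from the group mean. Summed over 6 excitatory neuron markers, none of which was at 0, its astrocytes held 443 CPM against 111 to 205 CPM in the other 15 libraries, and its oligodendrocytes 544 against 147 to 247 CPM. The part of neuronal RNA in these glial values was not tested. Without this library 62 of 68 fold changes in WT mice were below 0, with a median of -0.45. The median over all genes in this fit is not given here, and pairs in 1 library share its animal. Of the 68, 18 had an unadjusted edgeR p under 0.05, as had 15777 of all 112433 pairs. With the library included, the counts were 11 of 66 and 5831 of all 110620. With the library left out, 0 members were called in WT mice, against 1.34% of all pairs. For the difference between genotypes 0 were called, against 0.109%. In KO mice *Bdnf* in CA3 neurons was called, where 0.382% of all pairs were called. Between the genotypes 34 pairs in place of 20 were called, where 47.5% of all pairs were called in place of 36.3%.

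*Bdnf* in CA3 neurons stood closest to a call with DMXAA. It was at 172, 159, 140.0 and 92.3 CPM in KO vehicle libraries and at 66, 64.8, 71 and 47.5 CPM in KO DMXAA libraries. All 4 DMXAA libraries lay below all 4 vehicle libraries. In WT mice the values were 59.2, 85.5, 58 and 97.5 CPM with vehicle and 47, 58.5, 74 and 71 CPM with DMXAA, which overlapped each other and the KO DMXAA values. The log2 fold change was -1.16 (SE 0.21, adjusted p = 0.26) in KO mice, with an unadjusted edgeR p of 2.41e-05, and -0.28 (SE 0.21, adjusted p = 0.982) in WT mice. The difference between these, 0.88 (SE 0.30, adjusted p = 0.558), was not called. The upper limit of 4000 genes per nucleus kept 2479 of 6361 CA3 nuclei, the lowest share of any class. Without it the fold change in KO mice was -0.64 with an adjusted p of 0.728 (edgeR), while DESeq2 gave -1.19 with an adjusted p of 0.00304. The pair was also called without KO vehicle replicate 4 and without WT DMXAA replicate 3 (adjusted p = 0.0298 and 0.00611, edgeR). In other neurons of KO mice *Bdnf* had log2 fold changes of -0.51 in CA1, -0.21 in dentate granule and -0.15 in cortical nuclei, none of them called. In dentate granule nuclei the KO groups did not overlap either, at 92.3 to 97.9 CPM with vehicle and 73.4 to 88.1 CPM with DMXAA. Of the 66 pairs of members, the vehicle and DMXAA groups lay apart in 3 in KO mice (2 lower, 1 higher) and in 0 in WT mice. The share of such pairs over all genes is not given here.

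**Figure D4:**
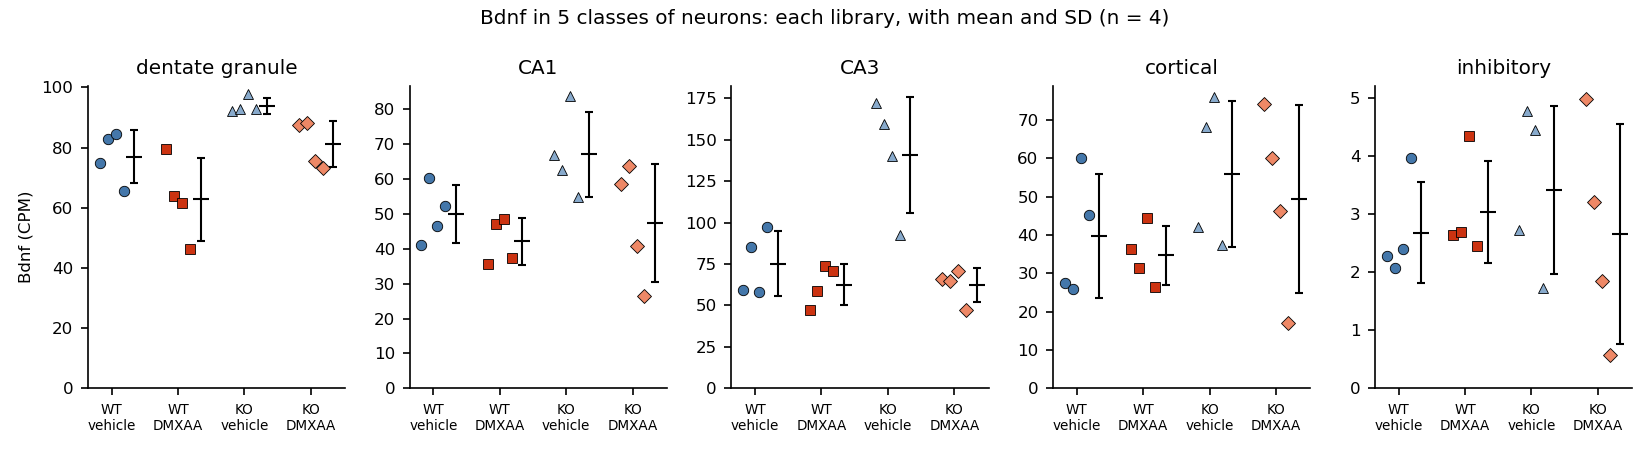
*Bdnf* in CPM in 5 classes of neurons, with 1 point per library and the mean and SD (n = 4) at the right of each group. In CA3 neurons the 4 KO vehicle libraries lie between 92.3 and 172 CPM, above the 4 KO DMXAA libraries. In dentate granule neurons the KO vehicle libraries, at 92.3 to 97.9 CPM, also lie above the KO DMXAA libraries, at 73.4 to 88.1 CPM.

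The genotypes were compared in vehicle-treated mice, to ask whether the genes differed at rest without the interferon receptor. Of the 66 pairs, 20 were called, 18 lower and 2 higher in KO mice. This must be read against the background, since 36.3% of all gene and class pairs were called in the same comparison, 18.9% lower and 17.4% higher. The 20 of 66 are near that share in sum, while by direction 18 of 66 lower and 2 of 66 higher are to be set beside the latter shares and beside those of compact genes given below. The members called lower were *Fosb*, *Junb* and *Egr1* in dentate granule neurons (background 25.8% of genes called lower), *Junb* and *Arc* in CA1 (23.9%), *Arc* in CA3 (18.8%) and *Fos* and *Junb* in cortical neurons (22.2%). They were also *Junb*, *Egr1* and *Npas4* in inhibitory neurons (20.1%), *Junb* in microglia (6.46%), *Fos*, *Junb*, *Egr1* and *Arc* in astrocytes (16.8%) and *Junb* and *Egr1* in oligodendrocytes (16.6%). All of these members are compact. Of all genes under 50% intron, 53.8% were called lower in dentate granule, 50.8% in CA1 and 42.6% in CA3 neurons. The shares were 49.2% in cortical and 46.0% in inhibitory neurons, 24.1% in microglia, 44.8% in astrocytes and 45.0% in oligodendrocytes. In oligodendrocyte precursors none of 3 was called (12.1% of all genes called lower), and 1 had an unadjusted edgeR p under 0.05. Leaving out 1 library moved the 20 calls to between 8, without WT vehicle replicate 3 (29.4% of all pairs called), and 34, without WT DMXAA replicate 3 (47.5%). The count was 33 without WT vehicle replicate 2 (29.7%), 13 without WT vehicle replicate 1 (30.1%) or KO vehicle replicate 2 (25.1%), and 11 without KO vehicle replicate 3 (30.5%). Of the 20 calls 8 were kept under every alternative run, and those of *Fos* in cortical and *Arc* in CA3 neurons were lost under DESeq2 as well. The 2 called higher were *Nr4a3* and *Bdnf* in CA3 neurons (18.4% of genes called higher, and 28.2% of genes of at least 80% intron).

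*Junb* was the member called in most classes, lower in 7 of the 8 classes where it was tested. These classes come from the same vehicle libraries and share their free RNA, so they are not separate observations. The part of neuronal RNA in the glial values was not tested. The call in CA1 neurons was lost under 4 alternatives and that in microglia under 6, each of which left out 1 vehicle library. In astrocytes it was at 9.34, 3.55, 15.4 and 10.9 CPM in WT vehicle and 1.4, 2.37, 2.73 and 2.11 CPM in KO vehicle libraries, with no overlap and a log2 fold change of -2.18 (SE 0.41, adjusted p = 0.00219). In oligodendrocytes the change was -2.40 (SE 0.42, adjusted p = 0.00164) and in dentate granule neurons -1.57 (SE 0.37, adjusted p = 0.00339), again without overlap. *Egr1* in inhibitory neurons was lower, with a log2 fold change of -1.13 (SE 0.37, adjusted p = 0.0228), with the KO vehicle libraries at 8.17, 9.08, 8.91 and 8.18 CPM below all 4 WT vehicle libraries given above. This call was lost without WT vehicle replicate 1 or 3 and without KO vehicle replicate 1 or 4. *Nr4a3* in CA3 neurons was higher, at 189.8, 234, 194 and 135 CPM in KO vehicle against 76.7, 119, 88.2 and 118 CPM in WT vehicle libraries, with no overlap and a fold change of 0.90 (SE 0.21, adjusted p = 0.00332). *Bdnf* in CA3 neurons was higher, with a log2 fold change of 0.88 (SE 0.21, adjusted p = 0.00383), although the lowest KO vehicle library lay below the highest WT vehicle library, and this comparison shares its KO vehicle libraries with the DMXAA comparison above.

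The fold changes are given here by the intron content of the genes. All 34 tested pairs of compact genes had a fold change below 0 in KO mice, of which 18 were called, where 24.1 to 53.8% of all compact genes of a class were called lower. They ran from -2.40 to -0.22 with a median of -1.22 on the log2 scale. Of the 32 tested pairs of intron-rich genes 24 had a fold change above 0 and 8 below it, from -1.18 to 1.52 with a median of 0.23. They were above 0 in 17 of 20 neuronal pairs and in 7 of 12 glial pairs. Genes in general were parted in the same way. In dentate granule neurons the 2010 tested genes under 50% intron had a median of -0.70 and 53.8% of them were called lower, while the 8420 genes of at least 80% intron had a median of 0.18 and 14% were called lower. Over the 9 classes the median of such compact genes ran from -0.82 to -0.69. The member's fold change was below the median of its class in 27 of 34 compact pairs. *Malat1* took 3.25 to 8.33% of neuronal UMIs in WT vehicle and 0.983 to 2.02% in KO vehicle libraries. The part of this shift between the cohorts in the members' values was not tested, and genotype, age and cohort cannot be told apart.

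**Figure D5:**
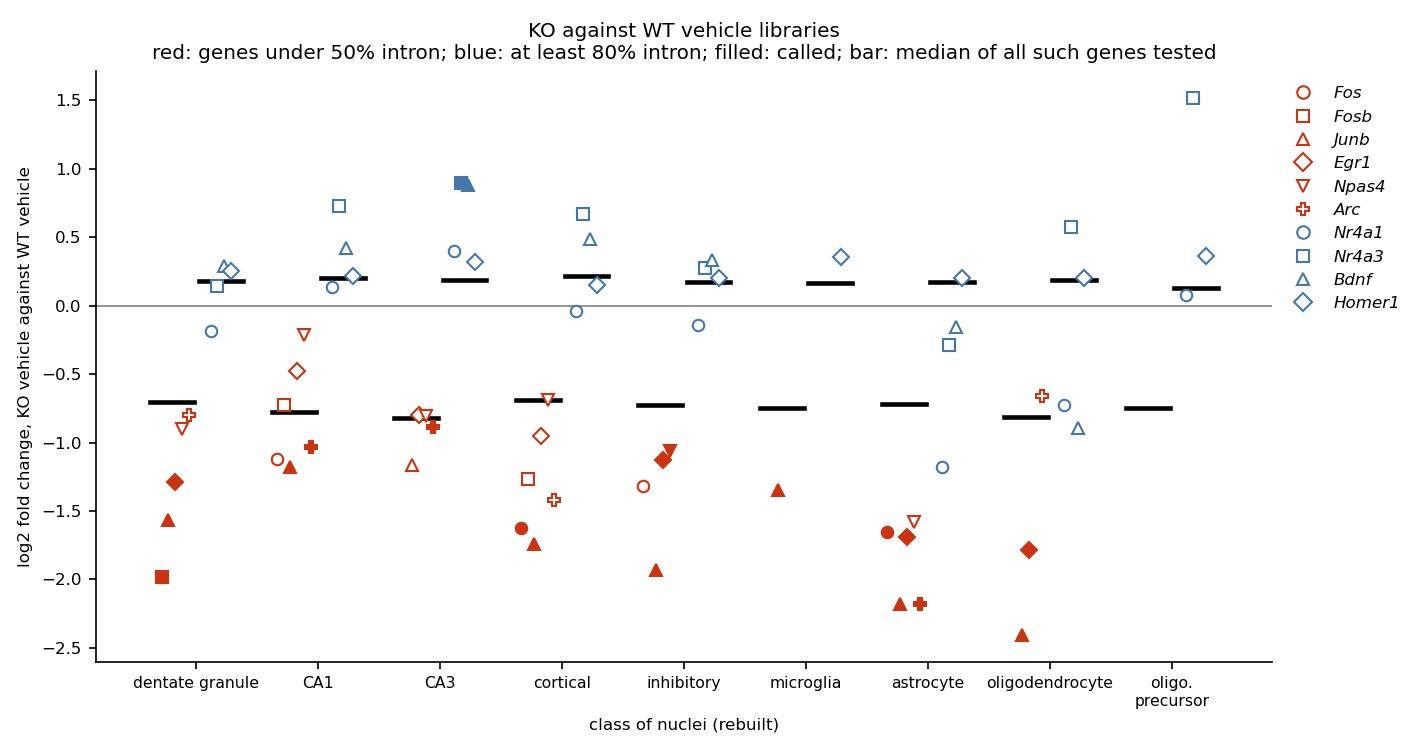
Log2 fold change of each member in KO vehicle against WT vehicle libraries, by class of nuclei, with compact genes in red and intron-rich genes in blue and called pairs filled. Black bars give the median of all tested genes of the same kind, and all 34 red points lie below 0.

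The wider activity programme was read from lists of genes that are no members. With DMXAA none was called of the 114 tested pairs of 26 further rapid genes, the 96 pairs of 16 late genes and the 190 pairs of 23 upstream genes (calcium channels, kinases and transcription factors), in either genotype or for the difference between them. Heat shock genes, 10 genes read as a sign of handling, gave 0 calls in 58 pairs. Since 0 of all pairs were called with DMXAA in KO mice, the counts of 0 there say nothing particular to a list. Unadjusted edgeR p-values were under 0.05 for 5 in WT mice, 8 in KO mice and 8 for the difference among rapid genes, and for 9 in WT mice, 11 in KO mice and 17 for the difference among late genes. Among upstream genes the counts were 11 in WT mice, 2 in KO mice and 14 for the difference, and among heat shock genes 2 in WT mice, 0 in KO mice and 1 for the difference. Over all 110620 gene and class pairs the counts were 5831 in WT mice, 5948 in KO mice and 7555 for the difference. Of the interferon list, 35 of 62 pairs rose in WT mice and 0 in KO mice, the difference was called in 12, and 5 were lower in KO vehicle than in WT vehicle mice. Between genotypes at rest the list counts are to be read against all genes tested, of which 18.9% were called lower and 17.4% higher. Over the 9 classes 24.1 to 53.8% of compact genes were called lower, and 11.1 to 36.6% of intron-rich genes were called higher. Rapid genes were called lower in 47 and higher in 2 of 114 pairs. In dentate granule neurons the median of 15 tested rapid genes was -1.11 against -0.076 over all genes, and *Btg2*, an antiproliferative factor, fell by 1.56 (SE 0.37, adjusted p = 0.00324) there. *Jund*, the AP-1 subunit with steady expression, was called lower in 7 classes, by 0.88 (SE 0.25, adjusted p = 0.009) in dentate granule neurons. Late genes were called lower in 29 and higher in 7 of 96 pairs. *Scg2*, a secretogranin of dense-core vesicles, fell in 8 classes and *Sorcs3*, a sorting receptor, rose in 6, by 1.09 (SE 0.28, adjusted p = 0.00516) in dentate granule neurons. Upstream genes were called higher in 75 and lower in 9 of 190 pairs, and the L-type calcium channel gene *Cacna1c* rose by 1.34 (SE 0.26, adjusted p = 0.00128) in dentate granule neurons. Heat shock genes were called lower in 16 of 58 pairs and higher in 0. The part of the intron shift in these counts was not tested, and nothing particular to a list is read from them.

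Outside the set, the genes whose levels most resembled the mean of the 10 members were sought in dentate granule neurons, as a description over 16 libraries with the group means removed. The members did not share 1 pattern there, since r of a member with the mean of the other 9 ran from 0.038 for *Homer1* to 0.69 for *Fos*, a gene of 128 UMIs in that class. Among 10321 genes of at least 5 CPM, the closest were *Dstn*, an actin-severing protein (Pearson r = 0.77, Spearman rho = 0.73), *Cx3cl1*, the neuronal chemokine fractalkine (r = 0.76, rho = 0.75), *Egr3*, a relative of *Egr1* (r = 0.76, rho = 0.54), *Dcaf12* (r = 0.75, rho = 0.73) and *Spry2*, an inhibitor of receptor kinase signalling (r = 0.73, rho = 0.82). They were chosen for this likeness among many genes, so no p is given. Without WT vehicle replicates 2 and 3, the libraries farthest from the median, r fell to 0.38 for *Egr3* and 0.54 for *Spry2* and was 0.74 for *Dcaf12*.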

How the data were processed

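Single-nucleus RNA-seq was read in 16 libraries of 4 groups. The deposited matrices hold UMI counts per gene and barcode, not normalized. Cell Ranger 6.1.2 stands in the headers of the files, and the submitters' processing notes give Cell Ranger 3.1.0, Seurat 3.0 and mm10. Per the study's methods, reads on pre-mRNA were counted, so intronic reads enter the counts. Barcodes with 200 to 4000 genes and at most 5% mitochondrial UMIs were kept, and doublets, called from simulated doublets at 0.8% per 1000 barcodes, were removed. Leiden clustering (leidenalg 0.10.2, resolution 0.5) left out the members and lists. The thresholds for naming clusters, and the split at 50% and 80% intron, were set after the data had been seen. UMIs were summed per library and class, with 375586 to 13472266 UMIs, and tested with edgeR 4.0.16 (TMM, filterByExpr, quasi-likelihood F test, 4 group means, 16 libraries), checked on simulated data. DESeq2 1.42.0 was an alternative. Intervals of fold changes are 95% intervals from the edgeR fit. All 10 members were named. Other genes were named only where a fixed list's gene was called, where they were the targeted gene, or where they were the 5 most alike, except *Malat1*, which was chosen after its values had been seen. The members and lists were chosen with earlier results of these data known. Replicate numbers only name libraries. Barcodes shared between libraries were at most 0.381% of the smaller library.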

Additional observations from a re-analysis of the deposited data

Results flagged for a closer look

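In 21 of 264 groups of 4 libraries (7.95%), 1 library lay far from the other 3 by Dixon's test. For normally distributed values the test flags about 1 in 20. The rate for sparse CPM values such as these was not measured, and groups from 1 library are not independent, so no excess is read from this share. Of these, 10 were high values of the library labelled WT DMXAA replicate 3, all of intron-rich genes. They were *Homer1* in inhibitory neurons (139 CPM against 82.1 to 87.6), *Homer1* in microglia (161 CPM against 33.8 to 48.5), *Homer1* in astrocytes (139 CPM against 51.4 to 54.8), *Homer1* in oligodendrocytes (144 CPM against 44.6 to 46.3) and *Homer1* in oligodendrocyte precursors (143 CPM against 75.2 to 80.7), then *Nr4a3* in astrocytes (26.4 CPM against 1.86 to 3.23), *Nr4a3* in oligodendrocytes (17.4 CPM against 2.24 to 3.72) and *Nr4a3* in oligodendrocyte precursors (12.8 CPM against 2.24 to 3.27), and *Bdnf* in inhibitory neurons (4.35 CPM against 2.45 to 2.68) and *Bdnf* in astrocytes (15.1 CPM against 3.53 to 5.11). The same library held the excitatory markers and the low *Malat1* share given above, and their part in these values was not tested.

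The others were spread over 7 libraries. KO vehicle replicate 4 was high for *Npas4* in dentate granule neurons (3.7 CPM against 0.954 to 1.1). KO vehicle replicate 3 was high for *Bdnf* in dentate granule neurons (97.9 CPM against 92.3 to 92.9). KO vehicle replicate 4 was low for *Nr4a3* in CA1 neurons (67.5 CPM against 127 to 128). KO vehicle replicate 1 was high for *Npas4* in CA3 neurons (11.9 CPM against 7.31 to 7.88). WT DMXAA replicate 1 was high for *Fosb* in cortical neurons (9.2 CPM against 1.81 to 2.66) and *Npas4* in cortical neurons (27 CPM against 10.2 to 12.3). KO DMXAA replicate 4 was low for *Junb* in cortical neurons (14.4 CPM against 18.7 to 19.1). KO DMXAA replicate 2 was high for *Homer1* in microglia (90.1 CPM against 49 to 55.4). KO DMXAA replicate 1 was high for *Junb* in astrocytes (4.39 CPM against 3.56 to 3.61), *Egr1* in oligodendrocytes (3.7 CPM against 1.65 to 1.83) and *Nr4a3* in oligodendrocyte precursors (12.8 CPM against 3.26 to 4.61).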

How the results depend on the processing

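No paired analysis was possible because replicate numbers follow accession order and name no shared animal, litter or day. Counts of called pairs with DMXAA stayed at 0 under most alternatives. In WT mice 1 pair was called without the filter on low counts, *Egr1* in inhibitory neurons (adjusted p = 0.0184, edgeR), where 0.302% of all pairs were called. Leaving out 1 library gave 0 throughout. In KO mice 1 pair, *Bdnf* in CA3 neurons, was called by DESeq2, without the filter, with only the 2 groups in the fit, and without KO vehicle replicate 4 or WT DMXAA replicate 3, so leaving out 1 library gave 0 to 1. Its adjusted p ran from 2.33e-05 to 0.9995 over all alternatives. Of all pairs in KO mice, DESeq2 called 0.0018%, the fit without the filter 0.0636% and that of only the 2 groups 0.256%. Without KO vehicle replicate 4 the share was 0.000885%, and without WT DMXAA replicate 3 it was 0.382%. The interaction gave 0 in every alternative run, and with only the groups compared it was not run, since its 4 groups are all groups. For KO against WT vehicle mice, 20 pairs became 8 to 34 on leaving out 1 library. The counts were 8 without WT vehicle replicate 3, 13 without replicate 1 and 33 without replicate 2, 11 and 13 without KO vehicle replicates 3 and 2, and 34 without WT DMXAA replicate 3. The shares of all pairs called ran from 25.1 to 47.5% over these fits. Of the 20 calls, 8 were kept under every alternative run. *Fos* in cortical neurons and *Arc* in CA3 neurons were ended by 15 and 14 of them.

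In dentate granule neurons of KO mice, fold changes near 0 changed sign, *Egr1* to -0.020 without the limit of 4000 genes. On leaving out 1 library they ran from -0.97 to 0.13 for *Fosb*, -0.054 to 0.34 for *Egr1*, -0.35 to 0.86 for *Npas4* and -0.47 to 0.15 for *Arc*. Unthinned, the shares of dentate granule nuclei with a UMI were 0.502% for *Fos*, 0.399% for *Fosb*, 5.48% for *Junb*, 1.91% for *Egr1*, 1.37% for *Npas4*, 1.63% for *Arc*, 4.05% for *Nr4a1*, 5.1% for *Nr4a3*, 35.9% for *Bdnf* and 46.9% for *Homer1*, since nuclei then keep all their UMIs. Depth limits *Fos* and *Fosb* most, with 128 and 154 UMIs in all dentate granule nuclei.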
